A study of Mus musculus with 12 samples.

Results

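Trim25, Trim13 and Trim59 are 3 of the 20409 genes counted in ORFtag screens of mouse embryonic stem (mES) cells. They were picked by gene name because of their earlier values in the post-transcriptional gene regulator (PTGR) screen, so their sense insertion counts in that screen are given as a description, with no test. ORFtag inserts a retroviral cassette at random. The cassette carries a promoter, a resistance gene, a tag and a splice donor, and a gene downstream of it is then made as a fusion to the tag. The number of different insertions assigned to a gene, in sorted and in unsorted cells, was the readout.

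All cells were wild-type diploid mES cells, derived from an originally haploid line, that carried a clonal reporter. For activators (reporter 7xTetO-pMYLPF-Puro-IRES-GFP) and repressors (reporter pEF1-BFP-7xTetO-pPGK-Puro-IRES-GFP) the tag was TetR, which binds DNA, and both reporters stood at the same expression-stable locus. In the PTGR screen the tag was λN, which binds RNA, and the Puro-IRES-GFP-10xBoxB reporter had been inserted at random. Activator cells were sorted for raised GFP and repressor cells for reduced GFP. The PTGR line also carried an integrated CreERT2 transgene. PTGR cells were sorted for reduced GFP in several rounds and expanded between them. Hydroxytamoxifen then induced Cre, which removed the boxB sites, and cells whose GFP came back were kept. Unsorted cells of each screen were non-selected cells of the same transduced pools. Each of the 6 groups (sorted and unsorted in 3 screens) had 2 replicates, and the 6 unsorted libraries together formed the background. Each reporter line was 1 clone, so a result in a screen rests on 1 line.

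TRIM proteins are E3 ubiquitin ligases built from a RING domain, B-boxes and a coiled coil, followed by a C-terminal part that differs between members. Trim25 ends in a PRY/SPRY domain, binds RNA, ubiquitinates the RNA sensor RIG-I (Ddx58) and assists the zinc-finger antiviral protein ZAP (Zc3hav1). Trim13 and Trim59 end in a transmembrane segment, and Trim13 sits in the endoplasmic reticulum membrane, where it takes part in protein degradation.

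The splice acceptor that receives the tag decides how much of each protein is fused. The acceptors used at these genes are shown 5′ to 3′ from the GRCm38 assembly (the assembly of mm10), with 12 bases of intron in lower case and the first 18 bases of the exon in capitals.
Trim25 exon 2: ttttctctacagTACAAACTGAGGAATAAA
Trim13 exon 2: ctttctctacagTGTTCTCCAGTTTTACCG
Trim13 exon 3: tctctgtggcagGATGTAATGGAGCTGCTT
Trim59 exon 2: ttttacttttagAATAACAAAGGATCCTGG
Trim59 exon 3: ttgttttgacagGAAATGCACAATTTTGAG

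Trim25 (ENSMUSG00000000275) lies at chr11:88999376-89020293 on the plus strand, and the exon 2 acceptor shown spans chr11:89004717-89004746. Exon 2 is coding. A fusion at exon 2 leaves out the 198 residues coded by exon 1 of the 634 in the annotated protein (31.2%), the end where the RING domain of TRIM proteins lies. Trim13 (ENSMUSG00000035235) lies at chr14:61598247-61605946 on the plus strand, with the acceptors at chr14:61599782-61599811 (exon 2) and chr14:61604518-61604547 (exon 3). Its whole coding sequence of 407 residues is in exon 3, so that either fusion holds the complete protein. Trim59 (ENSMUSG00000034317) lies at chr3:69035288-69044755 on the minus strand, with the acceptors at chr3:69043825-69043854 (exon 2) and chr3:69037991-69038020 (exon 3). Its 403 residues are likewise coded by exon 3 alone.

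Trim13 and Trim59 differed in the leader between acceptor and start codon. From the exon 3 acceptor the annotated start codon followed after 6 bases in Trim13 and after 3 bases in Trim59, both within the sequences shown. From the exon 2 acceptor it followed after 108 bases in Trim13 and after 78 bases in Trim59. Read in the frame of the start codon, the 108 bases of Trim13 held 0 stop codons and would add 36 residues. The 78 bases of Trim59 held 1 in-frame stop codon before the start codon. By the cassette sequences given in the methods, all 5 acceptors needed the cassette with 0 added bases for an in-frame fusion. The methods pair cassettes with exon phases in another order, and this difference was not resolved. The lists do not record which of the cassettes an insertion carried, so the share of in-frame insertions is unknown.

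Library size, the number of insertions at most 200 kb upstream of their assigned exon, ran 58560 and 60980 in the PTGR sorted libraries, 14705 to 22266 in the 4 other sorted ones and 54088 to 233799 in unsorted cells. Levels are insertions per 10000 of the library. PTGR unsorted replicate 1 stood apart from the other unsorted libraries at these genes, and 5.08% of its positions over all genes were also listed in PTGR sorted replicate 1. Of its 76 positions at Trim25, 39 were listed in a PTGR sorted library, and of its 52 at Trim13, 26 were listed in PTGR sorted replicate 1. The PTGR odds ratios and exon shares of Trim25 and Trim13 are therefore also given without it. Other values that use the background include it unless stated.

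Insertions at Trim25 were far more frequent in PTGR sorted cells than in any other group. PTGR sorted replicate 1 held 162 Trim25 insertions (26.6 per 10000, 95% Wilson interval 22.8 to 31.0) and replicate 2 held 57 (9.73, interval 7.51 to 12.6). PTGR unsorted replicate 1 held 76 (3.25 per 10000) and replicate 2 held 5 (0.924 per 10000). The 4 unsorted libraries of the activator and repressor screens held 12, 15, 10 and 19 (0.574 to 1.07 per 10000). No Trim25 insertion was found in either activator sorted library or in repressor sorted replicate 1, and repressor sorted replicate 2 held 1. Both PTGR sorted libraries were thus above all 10 others, of which PTGR unsorted replicate 1 was the highest. Summed, 219 sorted against 137 background insertions gave a 13.7-fold higher share and a log2 odds ratio of 3.78 ± 0.157 (SE from counting error).

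Trim13 followed the same order. PTGR sorted replicate 1 held 104 Trim13 insertions (17.1 per 10000, interval 14.1 to 20.7) and replicate 2 held 51 (8.71, interval 6.63 to 11.4). PTGR unsorted replicate 1 held 52 (2.22 per 10000) and replicate 2 held 4 (0.740 per 10000). The activator unsorted libraries held 5 and 9 and the repressor unsorted libraries 9 each (0.285 to 0.516 per 10000). One replicate each of the activator and repressor sorted cells held 1 insertion, and the other replicates held 0. Again the PTGR sorted libraries lay above all others. The sum was 155 sorted against 88 background insertions, a 15.1-fold higher share and a log2 odds ratio of 3.91 ± 0.193 (SE from counting error).

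Trim59 had few insertions anywhere and none of this enrichment. Each PTGR sorted library held 1 Trim59 insertion (0.164 and 0.171 per 10000). The unsorted libraries held 8 and 4 (PTGR), 5 and 5 (activator), and 6 and 5 (repressor), or 0.241 to 0.740 per 10000. The activator and repressor sorted libraries held 0, which at their size allows up to 0.935 and 0.801 per 10000. With 2 sorted against 33 background insertions the ratio of shares was 0.518, with an exact 95% interval of 0.0602 to 2.03. Neither a change nor its absence could be seen at this depth.

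**Figure D1:**
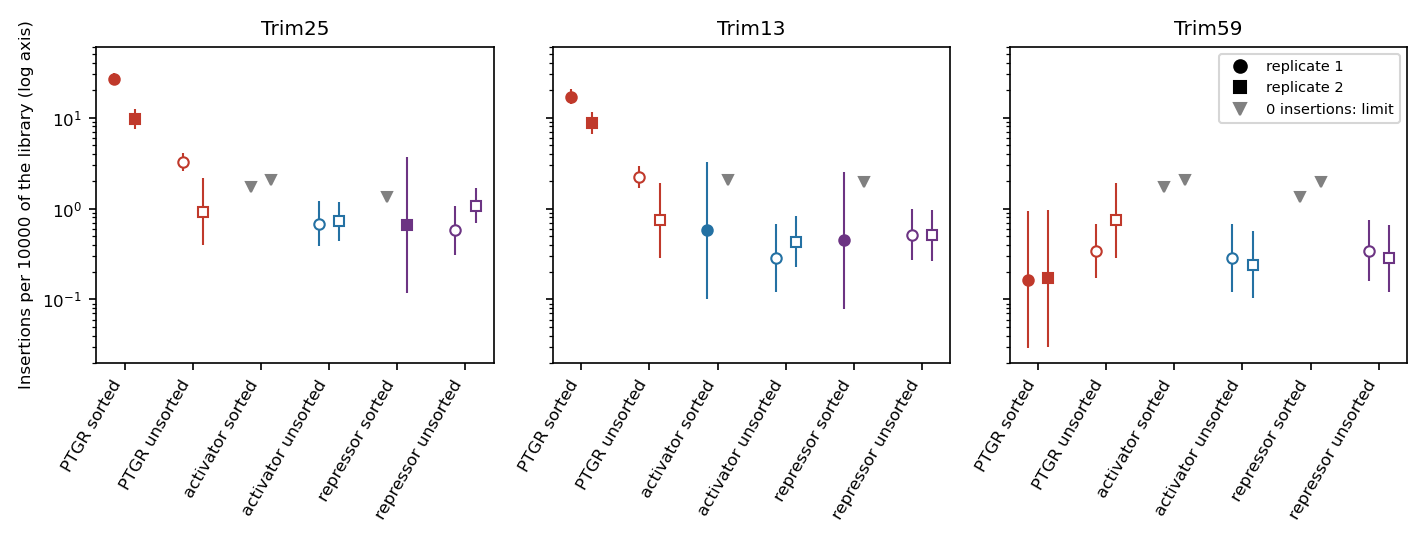
Insertions per 10000 of the library (log axis) at Trim25, Trim13 and Trim59 in the 12 libraries, with 95% Wilson intervals as bars, filled symbols for sorted and open symbols for unsorted cells, circles for replicate 1 and squares for replicate 2. Grey triangles mark libraries with 0 insertions, drawn at the share that 3 insertions would have had. Trim25 and Trim13 were highest in the PTGR sorted libraries (8.71 to 26.6 per 10000), while Trim59 lay at 0.164 and 0.171 there.

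Ordered by mean level, Trim25 fell from PTGR sorted (18.1 ± 11.9 per 10000, SD, n = 2) to PTGR unsorted (2.09 ± 1.64), repressor unsorted (0.824 ± 0.354), activator unsorted (0.703 ± 0.0271) and repressor sorted (0.329 ± 0.465), with activator sorted at 0. The ranges of PTGR sorted and PTGR unsorted did not overlap, and those of PTGR unsorted and repressor unsorted, and of repressor and activator unsorted, did. For Trim13 the order was PTGR sorted (12.9 ± 5.90), PTGR unsorted (1.48 ± 1.05), repressor unsorted (0.513 ± 0.00551), activator unsorted (0.359 ± 0.105), activator sorted (0.287 ± 0.406) and repressor sorted (0.225 ± 0.318). Here PTGR unsorted and repressor unsorted did not overlap either, and the 3 lowest groups did. For Trim59 the highest mean was in PTGR unsorted (0.541 ± 0.281) and the lowest level above 0 in PTGR sorted (0.167 ± 0.00479).

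The choice of background moved the size of the enrichment at both genes. Without PTGR unsorted replicate 1 the log2 odds ratio was 4.57 for Trim25 and 4.83 for Trim13. With the unsorted libraries of the activator and repressor screens alone it was 4.59 and 4.90, and with the 2 PTGR unsorted libraries alone it was 2.71 and 2.74. The part of that library in the enrichment was not tested beyond these values. Over the 3 genes, 2 passed the study's hit rule for the PTGR screen (one-sided Fisher's exact test, adjusted p below 0.001, log2 odds ratio of at least 1, at least 3 sorted insertions), by which 62 of 9303 genes tested (0.666%) were hits. Since this contrast chose the genes, nothing is read from that count. Among the 62 hits Trim25 ranked 5th by the number of sorted insertions and 13th by odds ratio. Trim13 ranked 6th by odds ratio. Trim59 was not tested because it had 2 sorted insertions, 1 under the minimum, whereas Trim55 and Trim62 with 3 each were tested and were not hits.

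The sorted replicates of the PTGR screen lay apart at both enriched genes. For Trim25 the odds of an insertion were higher in replicate 1 by 1.45 on the log2 scale, and for Trim13 by 0.97, while Trim59 had 1 insertion in each. Against the background, Trim25 was 19.8-fold higher in replicate 1 and 7.26-fold higher in replicate 2, and Trim13 was 19.8-fold and 10.1-fold higher. Since these counts chose the genes, the differences are given without a p. A two-sided Fisher's exact test of the replicates over all genes called 12 of the 3588 genes with at least 10 sorted insertions (0.334%). PTGR hits were 10 of these 12 and 61 of the 3588. Since the same sorted counts define the hits, nothing is read from that share. Replicate 1 was the higher one for 5 of the 12, and the median log2 ratio over the 61 hits tested was 0.13, against -0.06 over all genes tested.

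The size of the replicate difference depended on how positions were counted. Many positions at both genes lay within 10 bp of another one. Merging these left 118 of 162 Trim25 insertions in sorted replicate 1 (72.8%) and 47 of 57 in replicate 2 (82.5%), and 78 of 104 (75.0%) and 43 of 51 (84.3%) at Trim13. Over all genes 95.9% and 93.3% were left. After merging, the log2 difference was 1.23 for Trim25 and 0.76 for Trim13. Sorted replicate 2 also listed 12.7% of its positions more than once, and its 57 Trim25 positions filled 79 lines. With every line counted the log2 difference was 1.19 for Trim25 and 0.94 for Trim13. Whether neighbouring or repeated positions are separate insertions was not tested.

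**Figure D2:**
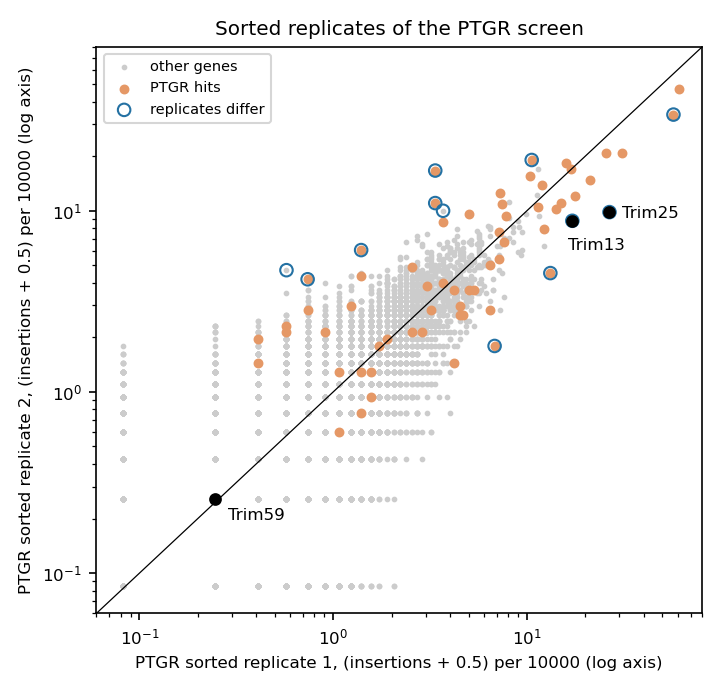
Insertions (plus 0.5) per 10000 in PTGR sorted replicate 1 (x, log axis) against replicate 2 (y, log axis), one point per gene, with equal values on the line. Orange points are the 62 PTGR hits, open blue circles the genes called by the test of the replicates, and black points the 3 TRIM genes, drawn over the other symbols. Trim25 and Trim13 lie below the line, at 26.6 against 9.73 and at 17.1 against 8.71 insertions per 10000, and Trim59 lies on it with 1 insertion in each library.

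The same positions recurred between libraries. Sorted replicates 1 and 2 shared 7 Trim25 positions (4.32% of replicate 1, 12.3% of replicate 2) and 4 Trim13 positions (3.85% and 7.84%), while over all genes they shared 0.648% and 0.675% of theirs. Of the 162 Trim25 positions in sorted replicate 1, 36 (22.2%) were in PTGR unsorted replicate 1, and of the 104 Trim13 positions 26 were (25.0%). The share over all genes was 19.5%. Seen from PTGR unsorted replicate 1, 36 of its 76 Trim25 positions (47.4%) and 26 of its 52 Trim13 positions (50.0%) were in sorted replicate 1, against 5.08% over all genes. Of the 57 Trim25 positions in sorted replicate 2, 6 (10.5%) were in PTGR unsorted replicate 1, against 1.93% over all genes. How positions came to be listed in both was not tested. Insertions of PTGR unsorted replicate 1 that were in neither sorted library numbered 37 at Trim25, or 1.58 per 10000 of the whole library. The activator and repressor unsorted libraries, with no positions left out, held 0.574 to 1.07.

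Insertions at Trim25 lay mainly before the gene. In the PTGR sorted libraries 181 of 219 (82.6%, Wilson interval 77.1 to 87.1) were upstream of its annotated start, 6 in exon 1 and 32 in introns. The median distance to the exon 2 acceptor was 7703 bp and the longest 13888 bp. The background was alike, with 110 of 137 upstream (80.3%, interval 72.8 to 86.1) and a median of 7721 bp. In the activator and repressor unsorted libraries alone, 43 of 56 were upstream (76.8%, interval 64.2 to 85.9). The sorted replicates were also alike, with 83.3% and 80.7% upstream.

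Insertions at Trim13 lay mainly within the gene. In the PTGR sorted libraries 125 of 155 were in introns, 1 in exon 1 and 29 upstream (18.7%, interval 13.4 to 25.6). The median distance to the acceptor was 2125 bp, and 1 insertion was more than 50 kb away. In the background 29 of 88 were upstream (33.0%, interval 24.0 to 43.3), in the PTGR unsorted libraries 14 of 56 (25.0%, interval 15.5 to 37.7), and in the unsorted libraries of the activator and repressor screens alone 15 of 32 (46.9%, interval 30.9 to 63.6). The interval of the sorted cells overlapped that of PTGR unsorted cells and not that of these 4 unsorted libraries. At Trim59, 27 of 33 background insertions were upstream (81.8%), and of the 2 PTGR sorted ones 1 was upstream and 1 in an intron, 179 bp from the exon 3 acceptor.

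**Figure D3:**
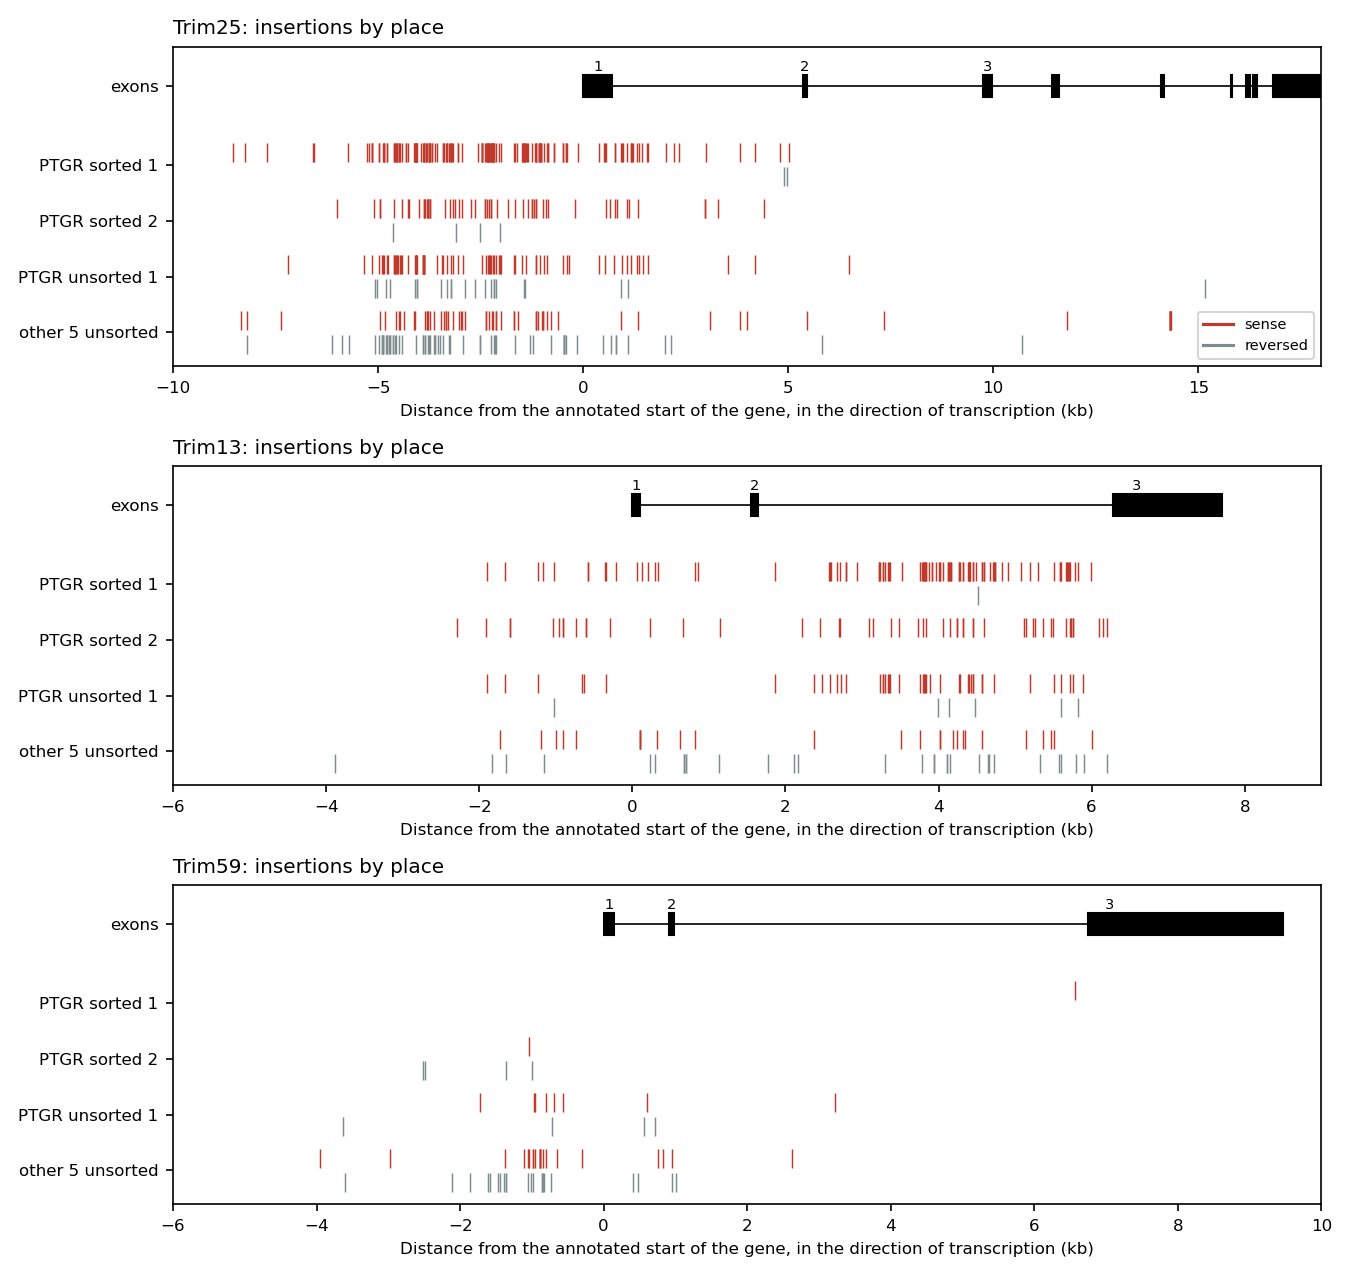
Insertions at Trim25, Trim13 and Trim59 by distance in kb from the annotated gene start, with exons as black boxes (the first 3 numbered) and vertical lines for single insertions, sense in red and reversed in grey, in PTGR sorted replicates 1 and 2, PTGR unsorted replicate 1 and the other 5 unsorted libraries. In PTGR sorted replicate 1 all 162 sense insertions at Trim25 and 98 of 104 at Trim13 fall in the plotted windows, as does 1 of 7 reversed ones at Trim13. Sense lines are dense before Trim25 and between exons 2 and 3 of Trim13 in the PTGR sorted rows, where reversed lines are few.

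Which exon the insertions could splice to was tested within each gene. The test used the same PTGR sorted insertions whose number chose the genes. All 219 PTGR sorted insertions at Trim25 were assigned to exon 2, against 127 of 137 in the background (92.7%), a difference of 7.30 percentage points (adjusted p = 0.0112, two-sided Fisher's exact test). This test called 22 of 2907 genes (0.757%). The call did not hold against the PTGR unsorted libraries alone, where 80 of 81 (98.8%) were assigned to exon 2, a difference of 1.23 points (adjusted p = 1, Fisher's exact test). Against the activator and repressor unsorted libraries alone, a background chosen after seeing the data, 47 of 56 were (83.9%; adjusted p = 0.000137, Fisher's exact test). The 10 background insertions assigned to later exons lay in 4 libraries. Repressor unsorted replicate 2 held 6 of them, all assigned to exon 6 and within a span of 10 bp. After merging positions within 10 bp the difference was 4.13 points (adjusted p = 0.614), and with sorted replicate 2 alone, all 57 of whose insertions were assigned to exon 2, it was 7.30 points (adjusted p = 0.716).

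At Trim13 the acceptors of exons 2 and 3 shared all insertions, and by the assignment rule those lying between them went to exon 3. In the PTGR sorted libraries 116 of 155 (74.8%) were assigned to exon 3, by replicate 77.9% and 68.6%, and the others to exon 2. In the background 53 of 88 (60.2%) were assigned to exon 3, a difference of 14.6 points (adjusted p = 0.608, Fisher's exact test). The background was not of one kind. Exon 3 took 38 of 52 insertions in PTGR unsorted replicate 1 (73.1%) and all 4 in replicate 2, but 5 of 14 in the activator and 6 of 18 in the repressor unsorted libraries. Against the PTGR unsorted libraries alone, 42 of 56 (75.0%), the difference was -0.16 points (adjusted p = 1, Fisher's exact test). Against the other 4 libraries alone, 11 of 32 (34.4%), the difference was 40.5 points (adjusted p = 0.00392, Fisher's exact test), in a comparison chosen after seeing the data that called 27 of 2803 genes (0.963%). In PTGR unsorted replicate 1, exon 3 took 23 of the 26 insertions also listed in sorted cells and 15 of the 26 that were not.

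At Trim59 the background favoured the exon 2 acceptor, with 30 of 33 insertions (90.9%, Wilson interval 76.4 to 96.9). This is the acceptor whose leader holds an in-frame stop codon before the annotated start codon. The leader of the less used exon 3, with 3 background insertions, held 0 such stop codons. Of the 2 PTGR sorted insertions, replicate 1 had its insertion assigned to exon 3 and replicate 2 to exon 2.

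**Figure D4:**
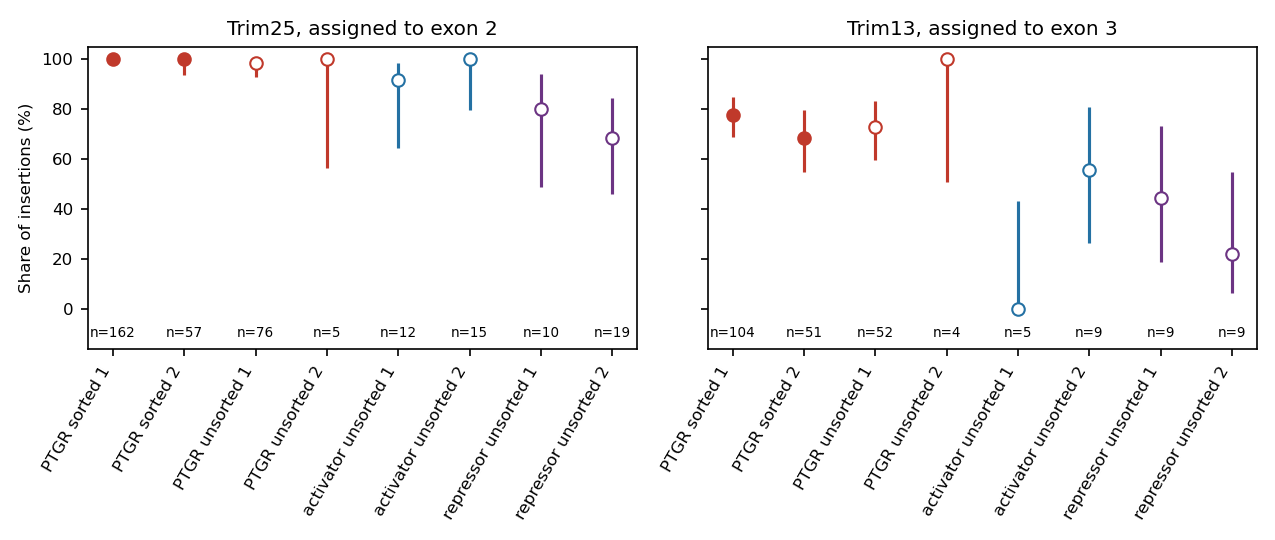
Share in percent of insertions assigned to exon 2 at Trim25 and to exon 3 at Trim13 in the PTGR sorted (filled) and the 6 unsorted libraries (open), with 95% Wilson intervals and the number of insertions below each (red PTGR, blue activator, purple repressor). All PTGR sorted insertions at Trim25 were assigned to exon 2. For Trim13 the 4 PTGR libraries lie at 68.6% to 100% and the activator and repressor unsorted libraries at 0% to 55.6%.

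Insertions of the opposite orientation, which cannot splice the tag into the gene, were not enriched. PTGR sorted replicates 1 and 2 held 2 and 4 reversed insertions at Trim25, 7 and 1 at Trim13, and 0 and 4 at Trim59. The background held 88, 59 and 28. By one-sided Fisher's exact tests on reversed insertions 0 of the 3 genes were called in the PTGR screen (adjusted p = 1 for Trim25, 0.868 for Trim13 and 0.886 for Trim59), 0 had an unadjusted p under 0.05, and 46 of 9204 genes tested (0.500%) were called. Sense insertions made up 97.3% of all insertions at Trim25 in PTGR sorted cells and 95.1% at Trim13. In the activator and repressor unsorted libraries they made up 47.1% and 39.5%. In PTGR unsorted replicate 1 they made up 76.8% and 85.2%. Trim59 had 2 sense and 4 reversed insertions in PTGR sorted cells.

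In the DNA-tethering screens the 3 genes held 0 or 1 insertion per sorted library. By two-sided Fisher's exact tests over all genes, which called 147 of 18319 genes (0.802%) in the activator screen and 373 of 18313 (2.04%) in the repressor screen, 0 of the 3 were called in either. In the activator screen 1 of the 3 had an unadjusted p under 0.05, and in the repressor screen 0. edgeR and DESeq2 on the libraries of the same screen likewise called 0, with 0 at an unadjusted p under 0.05. Trim25 came nearest in the activator screen, with 0 sorted insertions where its background share of 1.34 per 10000 would give 4.30 (ratio 0, exact interval up to 0.869; adjusted p = 0.926, Fisher's exact test). Without PTGR unsorted libraries in the background it would give 2.45, under the 3 that a count of 0 allows. In the repressor screen Trim25 had 1 insertion (ratio 0.199, exact interval 0.00501 to 1.13; adjusted p = 0.850). Trim13 had 1 insertion in each screen, with a ratio of 0.362 (interval 0.00906 to 2.07) in the activator and 0.310 (interval 0.00776 to 1.77) in the repressor screen. For Trim59 the background share would give 1.04 and 1.21 insertions, so that a count of 0 carried little information. The intervals in these screens ended at 0.869 and 1.13 for Trim25 and at 2.07 and 1.77 for Trim13. The ratios of 13.7 and 15.1 in the PTGR screen come from the values that chose these genes. The difference between screens was therefore not tested. Insertions of the 3 genes in the sorted cells of these screens were too few to settle smaller differences from unsorted cells.

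The genes beside the 3 loci that were tested were not PTGR hits. Upstream of Trim25, in the same orientation, lies Coil, which codes for the Cajal body protein coilin, and it held 23 PTGR sorted and 218 background insertions (log2 odds ratio -0.15). Dgke, a diacylglycerol kinase on the opposite strand, held 13 and 138 (-0.31). Beside Trim13, Spryd7 held 23 and 251 (-0.35), and Kcnrg, in the same orientation downstream, held 0 and 3. Beside Trim59, Smc4, a condensin subunit, held 4 and 40 (-0.23), and the importin gene Kpna4 held 4 and 13 (1.40). The adjusted p was 1 for Coil, Dgke, Spryd7 and Smc4 and 0.551 for Kpna4 in one-sided Fisher's exact tests, while Kcnrg was not tested.

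Other TRIM genes were hits as well. Of 71 TRIM family genes in the tables, 64 had a background insertion and 32 were tested in the PTGR screen. Hits were 6 of these 32 (18.8%). Without Trim25 and Trim13, which were chosen for this enrichment, they were 4 of 30 (13.3%), against 0.666% of all genes tested, and the median log2 odds ratio of the 30 was 0.27, against 0.14 over all genes tested. With the 2 PTGR sorted and 2 PTGR unsorted libraries alone, edgeR found 5 and DESeq2 3 hits among the TRIM genes. The other 4 hits were Trim71, an RNA-binding repressor of stem cell mRNAs (277 sorted, 336 background insertions, log2 odds ratio 2.82, adjusted p = 2.78e-103), Trim26 (87 and 57, 3.71, adjusted p = 3.99e-45), Trim28, the corepressor of KRAB zinc-finger proteins (309 and 676, 1.97, adjusted p = 1.59e-68), and the microtubule-bound Mid2 (24 and 46, 2.16, adjusted p = 1.57e-05), all by one-sided Fisher's exact tests. Trim28 was also a hit with reversed insertions in this screen. By odds ratio Trim13, Trim25 and Trim26 were the first 3 of the 6 TRIM hits.

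The TRIM genes of the repressor screen were mostly others. Hits there were 4 of 8 TRIM genes tested (50.0%), against 8.18% of all genes: Trim28 (331 and 302 sorted insertions, log2 odds ratio 4.70), Trim24, a relative of Trim28 (94 and 68, 3.37), Pml, the scaffold of PML nuclear bodies (54 and 38, 2.08), and Trim8 (16 and 8, 2.52). In the activator screen 0 of 12 TRIM genes tested were hits by Fisher's exact test, against 4.64% of all genes, with 1 at an unadjusted p under 0.05, and edgeR and DESeq2 also found 0. Trim28 was the TRIM gene found in 2 screens, and in both it was also a hit with reversed insertions.

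In the PTGR screen 0.666% of all genes tested were hits. Among 14 genes of antiviral RNA sensing and Trim25 partners, 9 were tested there and 2 were hits. These were Zc3hav1, which codes for ZAP (30 and 56 sorted insertions, 333 in the background, log2 odds ratio 1.14, adjusted p = 2.33e-07), and Khnyn, the endonuclease that works with ZAP (6 and 7, 17 in the background, 2.71, adjusted p = 0.000598), by one-sided Fisher's exact tests. edgeR and DESeq2 called 0 of the 14 as PTGR hits, with 3 and 2 at an unadjusted p under 0.05. The 9 genes tested had a median log2 odds ratio of -0.11. In the repressor screen, where 8.18% of all genes tested were hits, 1 of 2 tested was a hit. It was the RNA-binding nuclease gene N4bp1 (66 and 35 sorted insertions, log2 odds ratio 2.99, adjusted p = 1.20e-48, Fisher's exact test). In the activator screen, where 4.64% were hits, 0 of 2 was, with 0 at an unadjusted p under 0.05 and 0 by edgeR and DESeq2. Of 18 genes of endoplasmic reticulum-associated degradation, the process in which Trim13 takes part, 8 were tested in the PTGR screen and 0 were hits by Fisher's exact test, with 0 at an unadjusted p under 0.05 and 0 by edgeR and DESeq2. These 8 had a median log2 odds ratio of 0.27. Hits were 0 of 3 tested in the activator and 0 of 2 in the repressor screen, with 0 at an unadjusted p under 0.05 by Fisher's exact test and 0 hits by edgeR and DESeq2. At the shares of hits over all genes tested, counts of 0 among so few genes carry little information in any of the screens.

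The profile of log2 levels over the 12 libraries put other genes next to each member, among 9731 genes with at least 20 insertions. The points share the libraries and their depth, and the correlations are descriptions. Nearest to Trim25 were Maco1 (Pearson's r = 0.934), Adpgk (0.934) and Smg5, a nonsense-mediated decay factor (0.932). Nearest to Trim13 were Cnot9, which belongs to the CCR4-NOT deadenylase (0.956), Pde9a (0.952) and the autophagy receptor gene Optn (0.932). Of these 6, all but Adpgk were PTGR hits, against 0.666% of all genes tested. The 12 libraries include the PTGR sorted ones, which chose Trim25 and Trim13 and define the hits, so nothing is read from that count. Cnot9, with 80 and 26 sorted insertions, also had more in replicate 1. Trim25 and Trim13 correlated at 0.881 with each other and at -0.122 and -0.236 with Trim59. The gene nearest to Trim59, Chrac1 (0.942), had 1 insertion in either PTGR sorted library, so that the likeness rests on low counts.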

How the data were processed

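Genomic DNA of 12 mES cell libraries (6 groups, 2 replicates each) was mapped by inverse PCR and sequencing. The authors trimmed reads (Trim Galore 0.6.0), mapped them to mm10 (Bowtie2), filtered them for duplicates and mapping quality (SAMtools 1.9), and gave every insertion the closest exon downstream, first exons excluded, of the protein-coding transcripts in GENCODE. The 24 deposited lists give position, exon number and distance. The deposited counts per gene, summed over libraries, and the authors' odds ratios and p-values beside them were not used, except the list of genes.

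Each position (chromosome, coordinate, strand) was counted once per library, because the repressor unsorted lists repeat every position and PTGR sorted replicate 2 repeats 12.7% of its positions, within 200 kb of the exon. The hit test of the methods (one-sided Fisher's exact test on summed replicates against all 6 unsorted libraries) was used for hits, and two-sided Fisher's exact tests with Benjamini-Hochberg adjustment over all genes tested for the rest (scipy 1.17.1). These p-values and the 95% Wilson intervals cover counting error only, not the spread between replicates, and the lists hold no read numbers. A count of 0 was taken as up to 3. edgeR (4.0.16, quasi-likelihood, TMM) and DESeq2 (1.42.0) compared the 2 sorted with the 2 unsorted libraries of a screen, for genes with at least 3 insertions. Scripts were tested on simulated data. Sequences and gene models were read from the GRCm38 genome with GENCODE gene models, and 5 acceptors were matched. Protein sequences are not used here.

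By the methods sorted and unsorted cells come from one transduced pool, but the methods do not say that their replicate numbers match. Sorted positions recurred in the unsorted library of the same number at 5.17% to 19.5% in the activator and PTGR screens and at 0.397% to 2.35% in that of the other number. In the repressor screen, sorted replicate 1 shared 8.50% with unsorted replicate 1 and 10.0% with unsorted replicate 2. Sorted replicate 2 shared 8.72% with unsorted replicate 2 and 5.47% with unsorted replicate 1.

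The 3 genes and the gene lists were chosen with earlier results of these data known. Named are the 3 genes, the next protein-coding gene on either side, the hits of 3 lists (TRIM family, antiviral RNA sensing and Trim25 partners, endoplasmic reticulum-associated degradation), and the 3 genes with the most similar profile, of which only the first is reported here for Trim59. Gene names outside these were chosen after their values were seen (Trim55 and Trim62). Alternatives were other backgrounds, distances, counting rules, left-out libraries and tools.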

Additional observations from a re-analysis of the deposited data

Results flagged for a closer look

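PTGR unsorted replicate 1 lay apart from the other 5 unsorted libraries, by its gap to the nearest library relative to the range, at Trim25 (3.25 sense insertions per 10000, where the others had 0.574 to 1.07) and at Trim13 (2.22, where the others had 0.285 to 0.740). PTGR unsorted replicate 2, the smallest unsorted library, lay apart at Trim59 with 0.740 sense insertions per 10000, from 4 insertions, and was low in reversed insertions at Trim25 with 0.372 per 10000, from 2 insertions. By chance about 1 in 20 such groups would stand out, and 6 groups were looked at.

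Both sorted replicates of the PTGR screen lay above the background at Trim25 and Trim13 (1.34 and 0.861 insertions per 10000), and those of the activator and repressor screens below it. Without PTGR unsorted replicate 1 the background was 0.774 and 0.457, and activator sorted replicate 1, with 1 insertion (0.575), lay above it at Trim13. Taken as sorted minus background per 10000, the PTGR difference exceeded the activator difference by 18.3 at Trim25 and 12.7 at Trim13, and the repressor difference by 18.1 and 12.7. These differences between screens were not tested, since the PTGR values chose the genes.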

How the results depend on the processing

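Of 351 recomputed values of 25 results, 312 were scored as unchanged. Tested values had to keep their direction and their side of the threshold, and untested ones to stay within the spread of replicates. Counts of genes had only to stay within a fixed fold of the main count. Among these, the counts of members called in the activator and repressor screens and with reversed insertions were 0 throughout. The alternatives with the activator and repressor unsorted libraries as background, and with sorted positions removed from the unsorted libraries, were chosen after seeing the data. In the PTGR screen the 62 hits became 40 with the 2 PTGR unsorted libraries as background, 28 with edgeR without a replicate block, 33 with the replicate block and 20 with DESeq2, and 76 with every listed line counted and 74 with the activator and repressor unsorted libraries as background. The log2 odds ratio of Trim25 became 2.71 with the PTGR unsorted libraries as background, and as a log2 fold change it was 2.99 with the replicate block. That of Trim13 became 2.74 and 4.90 with the PTGR and with the activator and repressor unsorted libraries as background, 2.76 by edgeR, 2.95 with the replicate block and 3.09 by DESeq2. Both genes were hits in all of these except DESeq2, where 0 were. Leaving out each library in turn gave 2.86 (without PTGR sorted replicate 1) to 4.57 (without PTGR unsorted replicate 1) for Trim25 and 3.34 to 4.83, from the same libraries, for Trim13.

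The reversed log2 odds ratio of Trim13 (0.22) turned to -0.047 with every listed line counted and -1.42 within 50 kb, and ranged from -1.76 without PTGR sorted replicate 1 to 1.01 without replicate 2. For Trim59 it had no value without replicate 2, which held all its reversed insertions. Replicate differences (12) were called at 29 genes with every line counted and at 5 after merging positions within 10 bp. For Trim13 the log2 difference was 0.76 after merging, and 0.87 without sorted positions that an unsorted library also listed.

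Exon use was called at 35 genes with every line counted, 10 after merging and 5 with the PTGR unsorted libraries as background, against 22. At Trim25 the difference in percentage points was 4.13 after merging and 1.23 against the PTGR unsorted libraries (adjusted p = 1, Fisher's exact test), and 7.30 without either sorted replicate. At Trim13 it turned to -0.16 against the PTGR unsorted libraries, and was 40.5 against the activator and repressor ones and 30.2 without unsorted positions also listed in sorted cells, 23 of 26 of which in PTGR unsorted replicate 1 were assigned to exon 3, so that their removal lowers the background share. The causes were not tested. Small sorted libraries limit what counts of 0 or 1 can show in the activator and repressor screens.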
